A study of Mus musculus with 4 samples.

Results

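The 7 genes described here encode secreted coagulation factors and matrix proteins that the monocytes of mouse bone marrow carry to different extents: F10, F7, F5, F13a1, Fn1, Vcan and Thbs1, of 31053 genes counted. They were chosen by their CPM and share of positive cells in these same libraries and classes, with earlier results known, so the levels below are a description with no test. Bone marrow of femur and tibia was lysed of red blood cells and profiled by single-cell RNA sequencing (10x Genomics 3′ v3), with 1 library per genotype, all from mice labelled 12 months old on C57/B6. TWT mice carried IL6+/+, mDia1+/+ and miR146a+/+. IL-6 KO mice lacked IL6 alone. DKO mice lacked mDia1, an actin-nucleating formin encoded by Diaph1, and miR146a, a microRNA that restrains innate immune signaling. The study described DKO mice as a model of myelodysplastic syndrome that progresses with age to acute myeloid leukemia. It took their immature monocytic cells as the leukemic blasts, and no class used below is set apart as blasts. TKO mice lacked all 3 genes. The deletions are of the whole animal, and the labels do not say how many animals each library pools.

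Coagulation is a cascade of liver-made plasma zymogens and their cofactors. In it, factor VII with tissue factor activates factor X, and activated factor X with its cofactor, factor V, converts prothrombin to thrombin. Factor XIII, whose catalytic subunit is F13a1, then crosslinks fibrin, and also fibronectin. Monocytes and macrophages are long known to hold factor XIII-A, and versican and fibronectin transcripts mark classical monocytes among blood cells.

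F7 and F10 are neighbors on one strand. In GENCODE vM21 (GRCm38, the mm10 build of the files), F7 (ENSMUSG00000031443) lay on chromosome 8 from 13026034 to 13035809 and F10 (ENSMUSG00000031444) from 13037308 to 13056676, both on the plus strand and 1498 bases apart. F13a1 (ENSMUSG00000039109) lay on chromosome 13 from 36867178 to 37050244 and Vcan (ENSMUSG00000021614) on the same chromosome from 89655312 to 89742509, both on the minus strand. F5 (ENSMUSG00000026579) lay on chromosome 1 from 164151838 to 164220277, plus strand, and Fn1 (ENSMUSG00000026193) on chromosome 1 from 71585520 to 71653200, minus strand. Thbs1 (ENSMUSG00000040152) lay on chromosome 2 from 118111876 to 118127133, plus strand. All are protein-coding, and 3′ tags do not tell apart transcripts with different start sites or internal splicing.

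Promoters were found for 5 of the 7 genes in RefSeq (GRCm38.p6), which has more than 1 start for F13a1. Those shown belong to the pair of genes that were higher in DKO monocytes, F10 and Vcan, to F13a1, which was lower, and to F7, which lies next to F10. Each is the 250 bases before the start site, 5′ to 3′ on the gene's strand, from chr8:13037058-13037307 for F10, chr8:13025784-13026033 for F7, chr13:89742513-89742762 for Vcan and chr13:37050245-37050494 for the F13a1 start that GENCODE shares. Capitals mark matches to 5 motifs searched on both strands: GAGGAA, the core bound by PU.1, TTGCNNAA of C/EBP factors, TGANTCA of AP-1, the GC box GGGCGG and the TATA box TATAAA.
F10: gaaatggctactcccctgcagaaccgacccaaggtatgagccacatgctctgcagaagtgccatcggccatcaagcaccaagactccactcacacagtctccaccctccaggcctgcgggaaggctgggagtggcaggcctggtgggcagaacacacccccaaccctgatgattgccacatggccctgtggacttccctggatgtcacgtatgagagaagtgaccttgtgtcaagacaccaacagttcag
F7: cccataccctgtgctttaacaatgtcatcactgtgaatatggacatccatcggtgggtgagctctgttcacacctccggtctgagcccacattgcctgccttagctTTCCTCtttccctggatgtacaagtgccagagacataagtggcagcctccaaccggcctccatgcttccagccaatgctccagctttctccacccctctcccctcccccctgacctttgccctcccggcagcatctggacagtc
Vcan: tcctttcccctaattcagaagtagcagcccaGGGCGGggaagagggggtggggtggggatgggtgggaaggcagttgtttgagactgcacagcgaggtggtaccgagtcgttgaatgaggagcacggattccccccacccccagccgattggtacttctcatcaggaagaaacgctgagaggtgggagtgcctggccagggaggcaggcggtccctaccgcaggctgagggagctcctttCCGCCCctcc
F13a1: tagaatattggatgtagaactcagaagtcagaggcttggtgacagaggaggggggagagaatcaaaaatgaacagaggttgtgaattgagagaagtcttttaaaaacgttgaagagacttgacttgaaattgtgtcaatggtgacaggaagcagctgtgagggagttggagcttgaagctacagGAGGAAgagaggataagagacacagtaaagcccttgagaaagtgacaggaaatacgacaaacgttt
None of the 5 motifs was in the F10 window. F13a1 held 1 GAGGAA on the sense strand, 66 bases before the start, and F7 held 1 on the antisense strand. Vcan held 2 GC boxes, 1 on each strand. GAGGAA was in 23.3% and GGGCGG in 32.7% of 32851 RefSeq windows of this length, and no 2 matches overlapped, so the windows of F10 and Vcan, the genes higher in DKO, shared none of these letters.

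Each library held 8423 to 10866 barcodes. Those with 500 to 4000 genes detected and no more than 15% of UMIs from mitochondrial genes numbered 6794 (TWT), 7476 (IL-6 KO), 9627 (DKO) and 7560 (TKO). Each such cell was put in 1 of 20 classes by its own marker UMIs, and the 7 genes were not among the markers. Pairs of libraries shared 19 to 36 barcodes, at most 0.399% of the smaller. The classical monocyte-like class held 532 TWT cells (7.83% of kept cells), 502 IL-6 KO cells (6.71%), 1349 DKO cells (14.0%) and 578 TKO cells (7.65%), with median UMIs of 7936, 7185.5, 10030 and 7950. Their defining markers Ly6c2, Ccr2 and Ms4a6c each stood between 1080 and 1867 CPM (UMIs of a gene scaled to the same total of UMIs in every class and library) in every library. Cells were put in the class by these genes among others, so such levels follow from the rule. Over all barcodes, Diaph1 stood at 163 CPM in TWT and 178 in IL-6 KO, against 11.4 in DKO and 12.4 in TKO. Il6 and Xist were counted over these same barcodes, kept or not. Il6 went against its labels, at 9.89 CPM under the label IL-6 KO and 8.60 under the label TKO against 0.807 in TWT, but a 3′ tag can count RNA of a disrupted allele and so checks nothing here. Xist had 49030 UMIs in IL-6 KO and 1 to 7 in the others, so sex cannot be told apart from genotype there. DKO monocyte-like cells stood apart in a further respect: immature neutrophil markers summed to 2396 CPM in them against 986 to 1369 in the others, with Lcn2 alone at 1374 CPM, and their part in the results was not tested.

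Classical monocyte-like cells were the main source of F10, F13a1, Fn1 and Vcan. In TWT they gave 94.8% of all Fn1 UMIs of kept cells, 93.8% of Vcan, 92.4% of F13a1 and 62.7% of F10. In DKO the same class gave 60.05% of Fn1, 70.6% of Vcan, 74.3% of F13a1 and 50.04% of F10, and non-classical monocyte-like cells, of which there were 1453 against 36 in TWT, gave 18.6% of F10 and 9.11% of Fn1. The 883 unassigned DKO cells held 2021 of 12749 F10 UMIs (379 CPM) and 1058 of 6746 Vcan UMIs (198 CPM). Unassigned cells of the other libraries stood at 8.21 to 19.2 CPM in F10 and 6.95 to 11.4 in Vcan. F7 had few UMIs to place: the class held 12 of 13 in TWT, 4 of 10 in IL-6 KO, 152 of 275 in DKO and 5 of 8 in TKO. F5 and Thbs1 had another source in TWT: immature and mature neutrophil-like cells gave 59.9% and 25.0% of F5 UMIs, and 45.9% and 41.2% of Thbs1. In DKO those cells held 1232 and 399 of 2194 F5 UMIs. Of 368 Thbs1 UMIs in DKO they held only 44 and 31, and classical monocyte-like cells held 178.

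**Figure D1:**
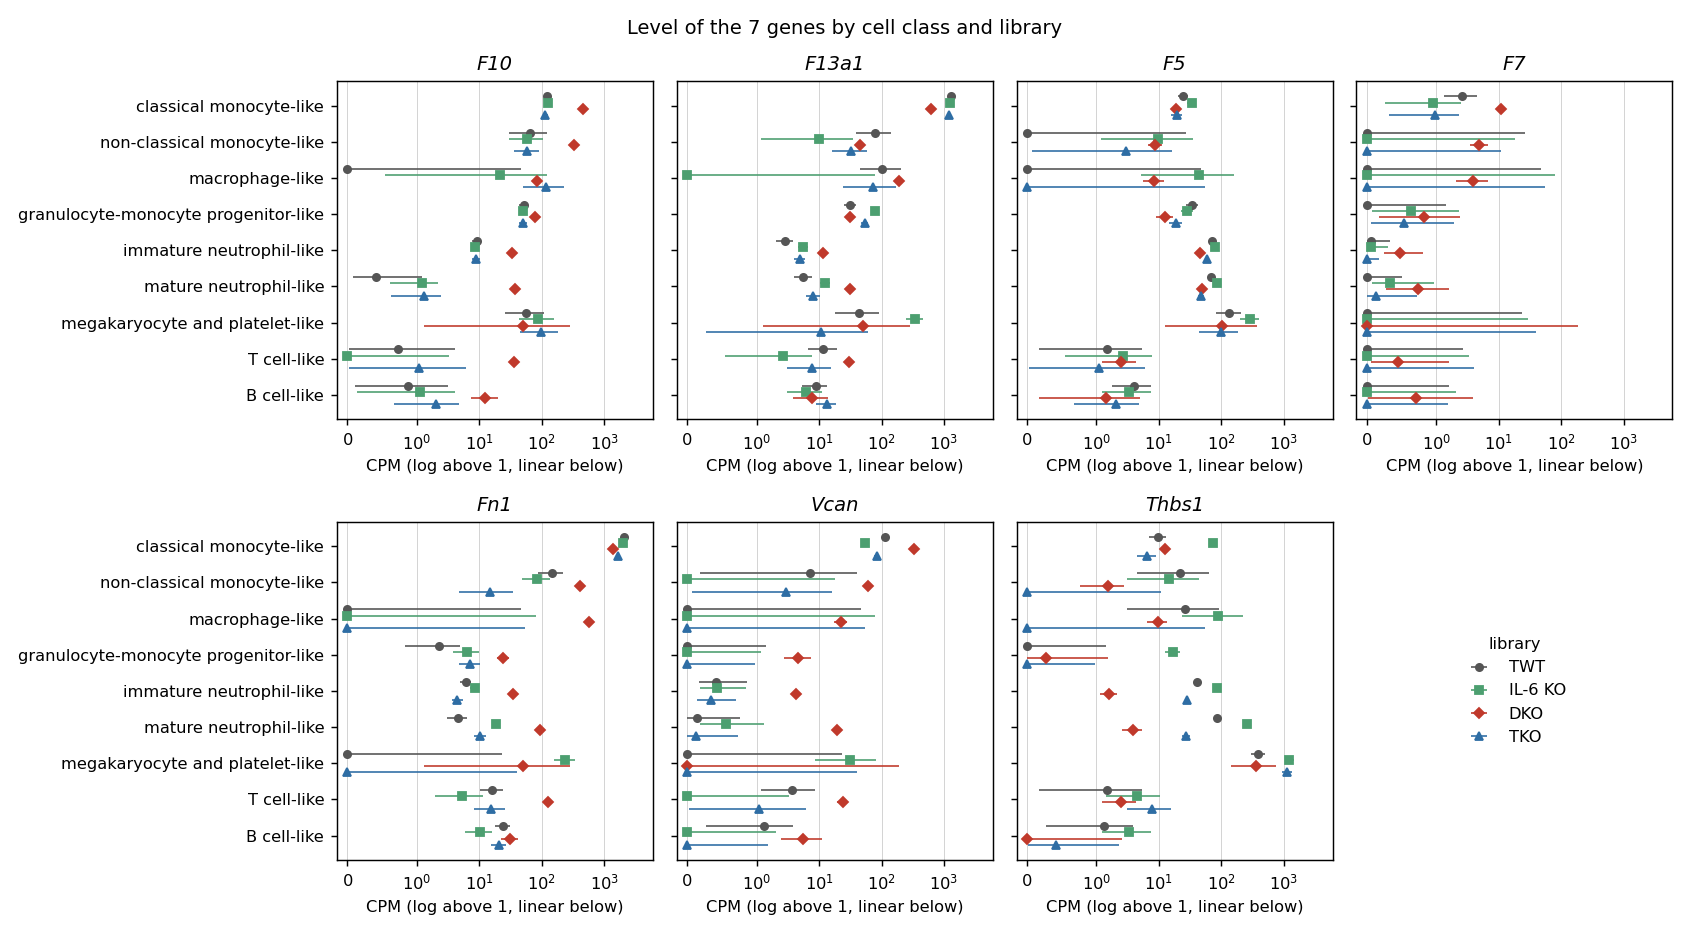
CPM (x axis, logarithmic above 1 and linear below) of each gene in 9 cell classes (rows), with 1 point per library and exact Poisson 95% intervals of counting error. F13a1, Fn1 and Vcan were highest in classical monocyte-like cells in all 4 libraries and F10 in all but TKO (117 CPM in macrophage-like cells, on 8 UMIs in 1 cell, against 114), F5 and Thbs1 in megakaryocyte and platelet-like cells (33, 19, 3 and 15 cells in TWT, IL-6 KO, DKO and TKO) and then, in TWT, in neutrophil-like cells.

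F10, which encodes coagulation factor X, the enzyme that converts prothrombin to thrombin, was higher in DKO monocyte-like cells than in any other library. It stood at 122 CPM (exact Poisson 95% interval 112 to 132) in TWT, 127 (117 to 139) in IL-6 KO, 451 (440 to 462) in DKO and 114 (105 to 124) in TKO. The libraries TWT, IL-6 KO and TKO did not differ beyond these intervals, which cover counting error only, since there is 1 library per genotype. DKO was 3.71 times TWT (3.40 to 4.05) and 3.94 times TKO (3.62 to 4.30). With each cell thinned to 2000 UMIs, to set depth equal, 19.5% of TWT, 19.6% of IL-6 KO, 56.8% of DKO and 19.8% of TKO monocyte-like cells held an F10 UMI (54.7%, 54.2%, 92.4% and 54.5% unthinned). In B cell-like cells, taken as the background (median UMIs 2430 to 2709), the thinned share was 0.151%, 0, 2.31% and 0.

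Vcan, which encodes the large chondroitin sulfate proteoglycan versican, was also highest in DKO. Its level was 115 CPM (105 to 125) in TWT, 53.7 (46.9 to 61.2) in IL-6 KO, 336 (327 to 346) in DKO and 83.1 (75.4 to 91.5) in TKO, and no 2 of these intervals overlapped. DKO was 2.94 times TWT (2.68 to 3.22) and 4.05 times TKO (3.66 to 4.48). IL-6 KO was 2.13-fold lower than TWT, but by log2 -0.82 with 200 detected genes as the only filter and -0.93 with classical, non-classical, macrophage-like and unassigned cells pooled, both within 2-fold. The thinned share of positive cells was 17.2%, 10.2%, 40.5% and 14.4% in the same order (36.1%, 21.5%, 76.9% and 30.4% unthinned), against at most 1.28% of B cell-like cells.

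F13a1, the transglutaminase subunit of factor XIII, went the other way. It stood at 1268 CPM (1236 to 1301) in TWT, 1259 (1226 to 1294) in IL-6 KO, 618 (605 to 631) in DKO and 1217 (1186 to 1247) in TKO. DKO was 2.05-fold lower than TWT and 1.97-fold lower than TKO, just past and just short of 2-fold. Against TKO it passed 2-fold with the mean of each cell's CPM (log2 -1.02) and with the pooled classes (-1.39). The difference from TWT came within 2-fold on 3 alternatives: log2 -0.88 with Leiden clusters in place of the gate, -0.97 with a stricter gate and -0.97 with 200 detected genes as the only filter. The thinned share of positive cells was 85.8%, 88.8%, 62.4% and 85.9%, and 0.741% to 1.54% of B cell-like cells were positive (97.9%, 97.2%, 89.6% and 96.2% of monocyte-like cells unthinned).

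Fn1, which encodes fibronectin, a substrate of factor XIII and a ligand of integrins, was the highest of the 7 in this class by UMI count, a measure that does not scale with transcript length. It stood at 2042 CPM (2001 to 2084) in TWT, 1987 (1944 to 2030) in IL-6 KO, 1378 (1358 to 1397) in DKO and 1652 (1617 to 1688) in TKO. DKO was 1.48-fold lower than TWT and 1.20-fold lower than TKO, within 2-fold. Its thinned share of positive cells was 88.3%, 90.6%, 83.9% and 84.9%, against 0.741% to 4.36% of B cell-like cells (95.9%, 96.4%, 96.1% and 94.5% of monocyte-like cells unthinned).

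F7, factor VII, which with tissue factor starts the cascade, was near the limit of detection. Its UMIs numbered 12 in TWT and 4 in IL-6 KO, and 152 in DKO and 5 in TKO, or 2.61, 0.955, 10.7 and 0.983 CPM. DKO was 4.11 times TWT (2.29 to 8.14) and 10.9 times TKO (4.58 to 34.1), and TWT, IL-6 KO and TKO overlapped. The gene did not reach the 50 CPM needed for a call. F7 made up 2.10% (exact Clopper-Pearson 95% interval 1.09 to 3.64) of the UMIs of F7 and its neighbor F10 in TWT, 0.745% (0.203 to 1.90) in IL-6 KO, 2.33% (1.98 to 2.72) in DKO and 0.852% (0.277 to 1.98) in TKO, so its share of the pair in DKO lay inside the interval of TWT, while both levels were higher. A UMI of F7 was in 8.08% of DKO monocyte-like cells and 0.598% to 2.26% of those of the other libraries, and thinned in 2.31% against 0.174% to 0.947%. No thinned B cell-like cell held one: 0 of 390 cells in DKO allows a share of cells with a UMI of up to 0.769%, taking 3 counts as the limit.

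F5 and Thbs1 were minor in monocyte-like cells. F5, factor V, the cofactor of factor Xa, stood at 24.1 CPM in TWT and 33.4 in IL-6 KO, and 18.7 in DKO and 19.5 in TKO. Thbs1, thrombospondin 1, an adhesive glycoprotein of platelet granules, stood at 9.57 CPM in TWT and 73.8 in IL-6 KO, and 12.6 in DKO and 6.49 in TKO. IL-6 KO was 7.71 times TWT in Thbs1 (5.61 to 10.8), and 13.2% of its thinned monocyte-like cells were positive against 1.86% to 1.91% in the others (30.3% against 4.67% to 7.86% unthinned, and at most 0.556% of thinned B cell-like cells). Megakaryocyte and platelet markers summed to 6.21 CPM in those IL-6 KO cells and 5.87 in TWT, with Gp1bb and Gp9 at 0 in both. Thbs1 was above TWT in most other IL-6 KO classes too. It stood at 16.8 CPM (53 UMIs) against 0 in granulocyte-monocyte progenitor-like cells, and at 123 against 39.8 in unassigned cells. Over all kept cells it stood at 97.9 CPM in IL-6 KO and 34.4 in TWT. Non-classical monocyte-like cells (3 UMIs in each library) and stromal-like cells (3 in IL-6 KO) went the other way. The part of free RNA was not tested.

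**Figure D2:**
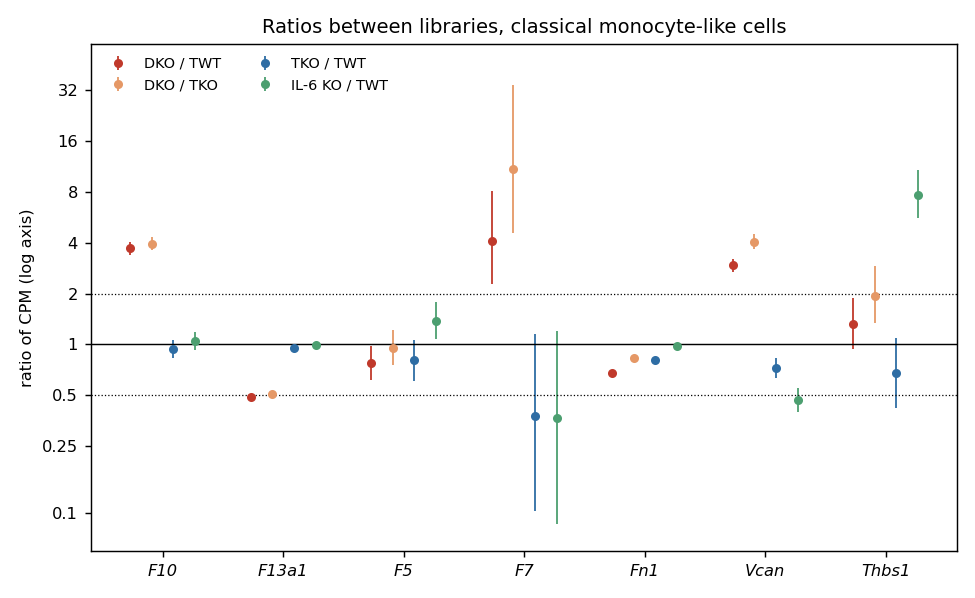
Ratio of CPM between libraries in classical monocyte-like cells (y axis, logarithmic) for each gene, with 95% intervals of counting error and dotted lines at 2-fold. F10 and Vcan were above 2-fold in DKO against both TWT and TKO, F13a1 lay at the lower line, and Thbs1 was 7.71 times TWT in IL-6 KO.

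**Figure D3:**
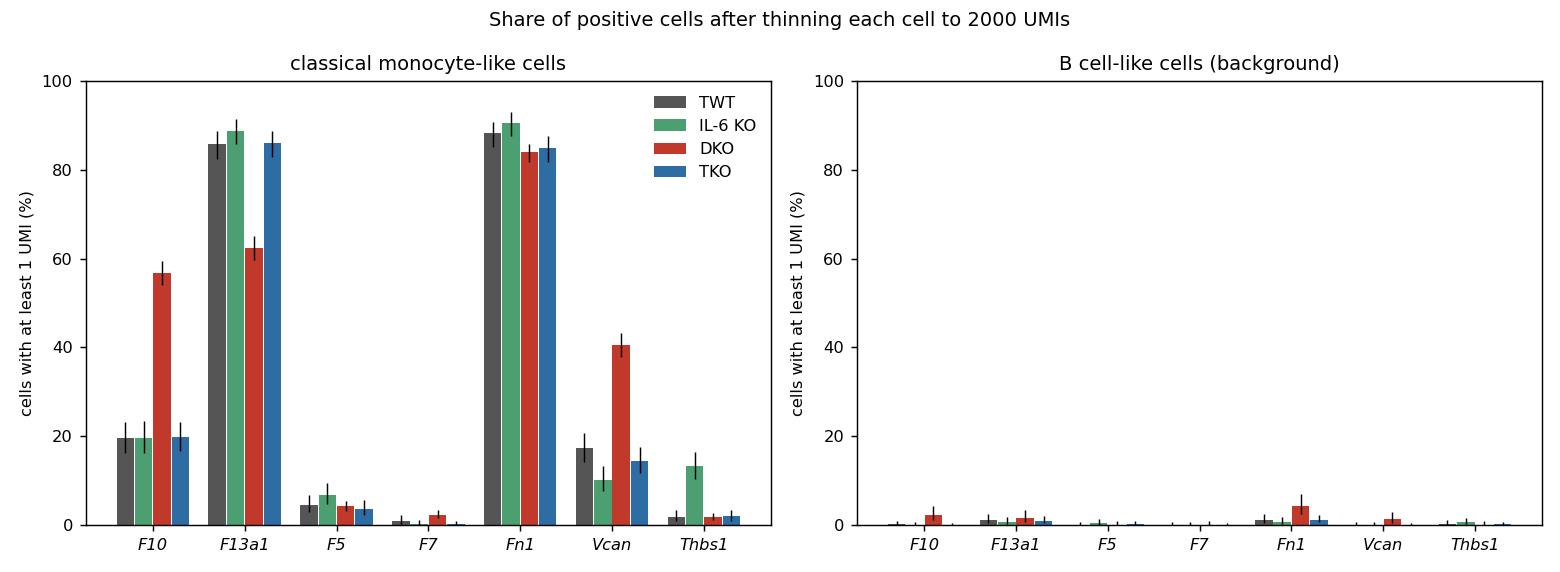
Percent of cells with at least 1 UMI of each gene (y axis) after thinning each cell to 2000 UMIs, in classical monocyte-like and B cell-like cells, with exact Clopper-Pearson 95% intervals. F10 was in 56.8% of DKO monocyte-like cells and 19.5% to 19.8% of those of the other libraries, and B cell-like cells stayed at or under 4.36% for every gene.

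Counted by one rule (a ratio of 2 or more, with 50 CPM or more in one of the libraries and a sum of 30 UMIs or more), 4 of the 7 genes were measured in DKO against TWT, and 2 were higher and 1 lower. Of 3155 genes measured there, 3.42% were higher and 10.1% lower, and the medians of log2 ratios (1 CPM added) were 0.49 over the 4 genes and -0.16 over all. In DKO against TKO 2 of 4 were higher and none lower, beside 3.99% and 9.58% of 3131 genes. In TKO against TWT none of 4 was called, beside 0.611% of 3108 genes in either direction. In IL-6 KO against TWT 1 of 5 was higher and 1 lower, beside 0.321% and 0.353% of 3116 genes. These contrasts share the TWT or the DKO library and were in view when the genes were chosen, so nothing is read from the counts.

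The share of cells in which F10, F13a1, Fn1 and Vcan were detected together moves with the share positive for each gene, which was used to choose them, and is given as a description. All 4 of F10, F13a1, Fn1 and Vcan had a UMI in 16.3% (95% interval 14.4 to 18.4) of thinned DKO monocyte-like cells, against 3.60% in TWT, 1.80% in IL-6 KO and 2.95% in TKO. F10 and Vcan were not confined to separate DKO cells: 41.7% of cells with an F10 UMI also held Vcan, against 39.0% of cells without. Likewise 64.4% of DKO cells with F10 held F13a1 and 59.8% of those without, so the gene that was higher and the gene that was lower did not split the DKO cells into separate sets at this depth. Vcan went with F13a1 more clearly: in DKO 46.5% of F13a1-positive cells held Vcan and 30.6% of F13a1-negative cells, and in TKO 16.2% and 3.70%.

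**Figure D4:**
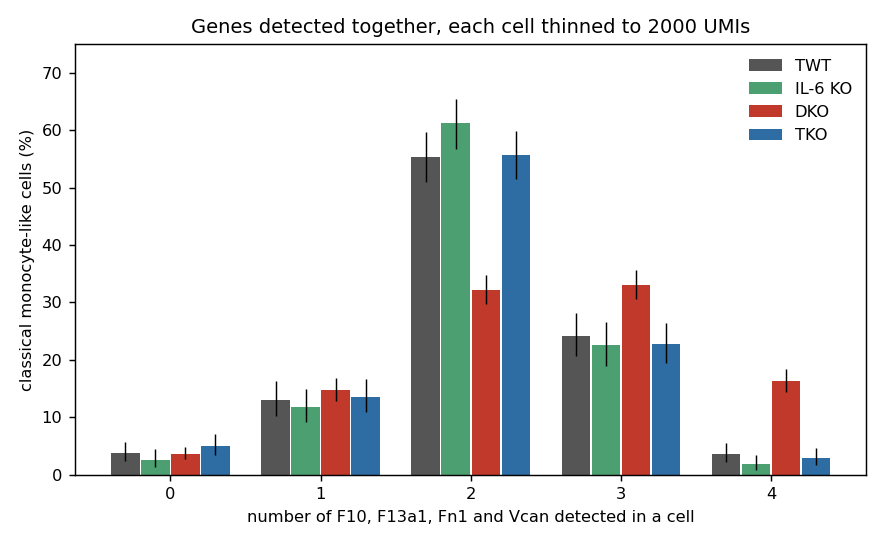
Percent of classical monocyte-like cells (y axis) in which 0 to 4 of F10, F13a1, Fn1 and Vcan had a UMI, each cell thinned to 2000 UMIs, with exact Clopper-Pearson 95% intervals. Detection of 2 genes was most common in TWT, IL-6 KO and TKO (55.3% to 61.2%), and 16.3% of DKO cells held all 4.

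Dividing cells, those with UMIs of at least 2 of 10 mitotic genes such as Mki67 and Top2a after thinning, were 22.9% of TWT, 20.8% of IL-6 KO, 9.69% of DKO and 24.7% of TKO monocyte-like cells. Vcan was lower in them than in other monocyte-like cells of the same library in TWT (52.6 against 141 CPM), IL-6 KO (14.0 against 71.4) and TKO (22.6 against 114). In DKO it stood at 309 CPM (284 to 337) in dividing and 340 (330 to 351) in other cells. The intervals of F10 overlapped between dividing and other cells in all 4 libraries: 113 and 125 CPM in TWT, 136 and 123 in IL-6 KO, 422 and 455 in DKO, 117 and 113 in TKO. F13a1 was at 781 CPM in dividing and 595 in other DKO cells, against 1299 and 1256 in TWT. The DKO library was thus above the others in F10 and Vcan and below them in F13a1 within both dividing and other cells. Fn1 was lower in dividing cells in all 4 libraries, from 1019 against 1426 CPM in DKO to 1877 against 2037 in IL-6 KO.

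**Figure D5:**
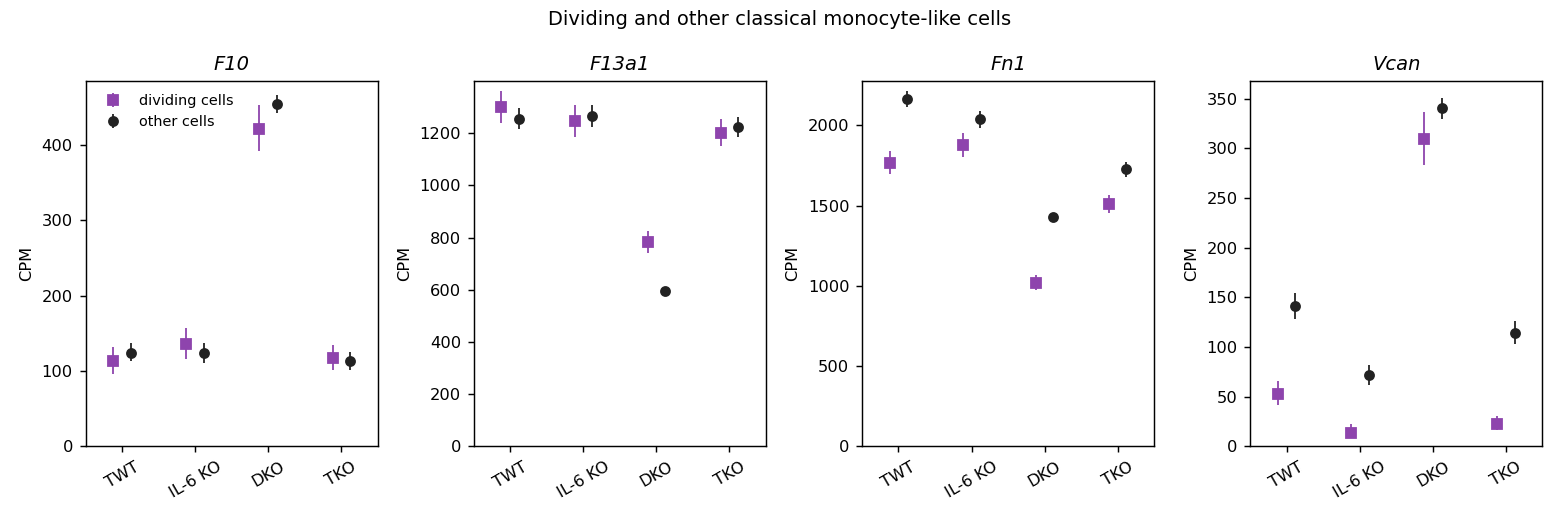
CPM (y axis, from 0) of F10, F13a1, Fn1 and Vcan in dividing (squares) and other (circles) classical monocyte-like cells of each library, with exact Poisson 95% intervals. Vcan stood at 14.0 to 52.6 CPM in dividing cells of TWT, IL-6 KO and TKO and at 309 in those of DKO.

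F10 was also seen in other monocytic classes and in their precursors. In granulocyte-monocyte progenitor-like cells, the precursors of monocytes and neutrophils, F10 stood at 51.4 CPM in TWT and 50.7 in IL-6 KO, and 76.9 in DKO and 50.4 in TKO, all within 2-fold, and Vcan had no UMI in TWT, IL-6 KO or TKO and 17 UMIs (4.66 CPM) in DKO. In non-classical monocyte-like cells, the patrolling subset (36, 60, 1453 and 107 cells in TWT, IL-6 KO, DKO and TKO), F10 stood at 65.0, 59.0, 330 and 58.6 CPM. DKO was 5.08 times TWT (2.67 to 11.1), on 9 UMIs in TWT. Fn1 stood at 144, 83.6, 412 and 14.7 CPM there and Vcan at 7.22, 0, 61.7 and 2.93. In DKO against TWT 3 of 4 measured genes were higher there, beside 9.32% of 3585 genes, and all 3 were higher in each alternative tried, but the Fn1 ratio moved from log2 1.51 to 4.28 with the stricter gate and 9.31 with Leiden clusters. In macrophage-like cells (25, 20, 465 and 26) Fn1 had 1911 UMIs in DKO, or 570 CPM, and 0 in every other library. With 3 UMIs over the class put in place of the TWT count of 0, DKO was 14.8-fold higher than TWT. F10 stood at 83.2 CPM there in DKO (279 UMIs), below the 117 of TKO (8 UMIs, all in 1 cell), and had 0 UMIs in TWT and 1 in IL-6 KO. The macrophage-like cells had median UMIs of 6939 in DKO and 1288 to 1476 elsewhere. They were also not alike in their top 10 genes, beyond C1qa, C1qb and C1qc in every library. These included Cxcl13, Gdf3 and Lipg in DKO, Fcna and Axl in TWT and IL-6 KO, and Gpnmb and Maf in TKO. Differences within this class thus cannot be told apart from a different mix of cells.

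F10 and Fn1 were also seen at low levels in cells that are not monocytic, and were highest in DKO in the classes given here. F10 stood at 37.4 CPM in mature neutrophil-like cells of DKO and 0.410 to 1.31 in those of the others. In T cell-like cells it stood at 35.7 against 0 to 1.09, and in B cell-like cells at 12.6 against 0.878 to 2.07. Immature neutrophil-like cells held F10 in every library, at 33.6 CPM (928 UMIs) under the DKO label and 8.63 to 9.15 elsewhere. Its presence in that class was thus not particular to DKO. Fn1 stood at 94.7 CPM in mature neutrophil-like DKO cells against 4.51 to 18.5, and at 30.8 in B cell-like cells against 10.1 to 24.2. Classical monocyte markers summed to 958 CPM in the mature neutrophil-like DKO cells and 687 to 767 in the others, and the part of free RNA or doublets in these levels was not tested. With the B cell-like level subtracted, the log2 ratio of DKO to TWT in classical monocyte-like cells was 1.85 for F10 and 1.54 for Vcan, against 1.88 and 1.55 without. That level is a low background for DKO. Vcan too stood lower in B cell-like DKO cells (5.61 CPM) than in T cell-like (23.9) or mature neutrophil-like ones (19.0). The Fn1 ratio in mature neutrophil-like cells was log2 4.12 by the gate and 1.28 with Leiden clusters.

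Thbs1 was lower in DKO in the cells that carried most of it in TWT, but not in classical monocyte-like cells (12.6 CPM against 9.57 in TWT). In mature neutrophil-like cells (1990, 2472, 1313 and 1988 cells) it stood at 83.6 CPM in TWT and 258 in IL-6 KO, and 3.80 in DKO and 27.3 in TKO, and in immature neutrophil-like cells at 41.1, 85.7, 1.60 and 28.2. In mature neutrophil-like cells DKO was 22.0-fold lower than TWT, TKO 3.06-fold lower and IL-6 KO 3.09-fold higher, and the order of the libraries was the same in immature cells. Of 3 measured genes 1 (Thbs1) was lower and 1 (Fn1) higher in DKO against TWT there, beside 6.26% and 8.56% of 2173 genes. In TKO against TWT 2 of the 7 genes were measured in mature neutrophil-like cells and 1, Thbs1, was lower, beside 0.634% of genes. In IL-6 KO against TWT 2 were measured and 1, Thbs1, was higher, beside 0.435%. The same held in immature cells, beside 0.103%. Thinned positive shares were 9.54%, 21.8%, 0.389% and 3.25% of mature neutrophil-like cells, against at most 0.556% of B cell-like cells. The summed level of 6 megakaryocyte and platelet markers in these cells was 10.4 CPM in TWT and 9.97 in IL-6 KO, and 1.47 in DKO and 5.75 in TKO. Immature neutrophil markers were at 41000 CPM in DKO against 26484 to 26932. The part of either set of markers in the difference was not tested.

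F5 stayed within 2-fold in its main source. In mature neutrophil-like cells it stood at 66.9 CPM in TWT and 84.8 in IL-6 KO, and 49.0 in DKO and 47.1 in TKO, and in immature ones at 70.6, 78.0, 44.7 and 59.2. No ratio among the 4 contrasts reached 2-fold in either class, and in mature cells DKO and TKO differed by less than the counting error (ratio 1.04, 0.8995 to 1.20). Between 8.71% and 14.2% of thinned mature neutrophil-like cells held an F5 UMI, against at most 0.370% of B cell-like cells.

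The level in whole marrow followed both the level within cells and the share of each class, which cannot be told apart there. F10 stood at 20.6 CPM in TWT and 19.3 in IL-6 KO, and 167 in DKO and 21.4 in TKO over all kept cells, so DKO was 8.07 times TWT, and Vcan was 6.78 times TWT (88.1 against 13.01 CPM). F13a1, at 154 CPM in DKO against 146 in TWT, was 1.05 times TWT over all cells, while it was 2.05-fold lower within classical monocyte-like cells, of which there was a share of 14.0% in DKO and 7.83% in TWT. Over all cells 2 of 4 measured genes were higher in DKO than TWT, beside 6.57% of genes.

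Most other coagulation genes did not reach the 50 CPM needed for a call in these cells. Of 25 further coagulation factors and inhibitors, 1 was measured in DKO against TWT in classical monocyte-like cells, Lman1, a cargo receptor that with Mcfd2 carries factors V and VIII out of the endoplasmic reticulum, and it was not called (64.6 CPM in TWT, 49.4 in DKO). F3, tissue factor, the partner of factor VII, and F2, prothrombin, the substrate of factor Xa, had no UMI in these cells of any library. Others had levels like that of F5: Pros1, the anticoagulant protein S, stood at 25.0 CPM in TWT and 17.2 in DKO, Thbd, thrombomodulin, at 22.4 and 15.3, and Mcfd2 at 24.1 and 32.6. Of 12 fibrinolysis genes 4 were measured and none called: Plaur, the urokinase receptor, stood at 79.6 CPM in TWT and 97.6 in DKO, and Anxa2, a plasminogen-binding annexin, at 1025 and 1414. None of 4 thrombin and protease receptors was measured. Beside these counts, 13.5% of the 3155 genes measured were called in either direction.

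Among 11 receptors of fibronectin, thrombospondin and related matrix, 6 were measured and 1 was higher in DKO: Sdc4, a heparan sulfate proteoglycan that binds fibronectin, at 1.96 CPM in TWT and 1.43 in IL-6 KO, and 59.4 in DKO and 1.18 in TKO. The measured integrin subunits, Itga4 (196 CPM in TWT and 126 in DKO) and Itgb1 (124 and 143), were within 2-fold. Itgb3, under the 50 CPM needed, stood at 12.8 CPM in TWT (59 UMIs) and 0.707 in DKO (10 UMIs). Of 27 other matrix proteins and matrix enzymes 5 were measured and 2 were higher: Spp1, osteopontin, at 10.4, 8.36, 196 and 10.4 CPM in TWT, IL-6 KO, DKO and TKO, and Ecm1, extracellular matrix protein 1, at 7.61, 3.58, 71.7 and 5.50. Tgfbi, a matrix protein that binds integrins, was at 568 CPM in TWT and 674 in DKO, and Mmp8, neutrophil collagenase, at 140 and 266, both within 2-fold. The median log2 ratio was 0.12 over the measured receptors and 0.92 over the measured matrix genes, beside -0.16 over all genes. Of 10 dividing cell genes 9 were measured and 8 were lower in DKO, with Mki67 at 303 CPM in TWT and 50.6 in DKO. These 10 genes also define the dividing cells (9.69% of DKO and 22.9% of TWT monocyte-like cells), so their count is not independent of that share. Beside these counts of receptors, matrix and dividing cell genes, 3.42% of the 3155 genes measured were higher in DKO than in TWT and 10.1% lower.

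Across 45 profiles (each a class in a library with at least 50 cells), levels were compared by Pearson's r of log2 CPM among 6761 genes. Among F10, F7, F13a1, Fn1 and Vcan r ran from 0.66 (F10 and Fn1) to 0.88 (Fn1 and Vcan), and between these and F5 or Thbs1 from 0.04 to 0.40. F5 and Thbs1 had 0.56 with each other. The genes most like F10 were Tor1a (0.89) and Fam20c (0.88), and of the 7 F7 was nearest to it (0.74). Those most like Thbs1 were Mmp8 (0.79) and Chp1 (0.69), and most like F5 Tcn2 (0.87) and Mgst1 (0.86). The profiles share libraries and cell depth and are no independent samples, so these values are a description.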

How the data were processed

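The authors ran Cell Ranger (version 3.0.2 per the file headers, on mm10 per the submitters' notes), and the deposited values are raw UMI counts of each gene in each called barcode, 61292684 to 85145074 per library. Their later Seurat 4 steps were not used.

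Barcodes with 500 to 4000 genes and 15% mitochondrial UMIs or less were analysed, the thresholds of the study. With no cell annotation used, a cell took the class whose marker UMIs had the smallest Poisson tail probability, if that was 0.001 or less, 10 times smaller than for any other class, and 2 markers or more had a UMI. Between 306 and 883 cells per library stayed unassigned. Of DKO classical monocyte-like cells 84.4% lay in monocyte clusters, and of the others 97.8% to 99.4%. Fn1 and F13a1 were among the top 10 genes of that class. Doublets called by Scrublet (scanpy 1.11.5), 0.741% to 2.08% of the class, were left out only in an alternative.

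UMIs were summed per class and library as CPM. Intervals (exact Poisson for levels, exact Clopper-Pearson for shares, exact conditional for ratios, 95%) cover counting error only, and no genotypes were tested against each other. Thinning to 2000 UMIs left out 2 to 7 classical monocyte-like and 60 to 162 B cell-like cells per library. The text names the 7 genes, up to 6 measured genes of each of 6 lists, the genes most like each of the 7 and, chosen after their values were seen, F2, F3, Mcfd2, Pros1, Thbd and Itgb3. The genes and lists were chosen with earlier results of these data known. The call was tested on simulated counts with Poisson error alone and planted changes larger than 2-fold. That test does not cover spread between animals or genes near 2-fold. Alternatives were Leiden clusters, a stricter gate (10000 times), 200 genes as the only filter, no doublets, CPM without genes above 1%, the mean of each cell's CPM, B cell-like levels subtracted, a pseudocount of 10 and a minimum of 10 CPM. Tools were Python 3.11.15, numpy 2.4.6, scipy 1.17.1, pandas 2.3.3 and matplotlib 3.10.9.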

Additional observations from a re-analysis of the deposited data

Results flagged for a closer look

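Thbs1 in TKO against TWT had opposite directions in 2 classes: log2 1.54 in megakaryocyte and platelet-like cells (15 cells in TKO, 33 in TWT) and -1.58 in mature neutrophil-like cells. Beside these, 6.26% of genes were called higher in the megakaryocyte and platelet-like class and 0.634% lower in the neutrophil-like class. Only 7 TKO and 13 TWT megakaryocyte and platelet-like cells held a Thbs1 UMI. The difference between the classes was not tested, since there is 1 library per genotype.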

How the results depend on the processing

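No paired analysis was possible because each genotype has 1 library, and no replicate could be left out for the same reason. None of the 599 log2 ratios of the 7 genes under an alternative turned a called direction; 468 stayed within the counting interval of the main value and 131 left it. F10 and Vcan were higher in DKO than in TWT and TKO in classical monocyte-like cells under every alternative. With a minimum of 10 CPM, the genes past 2-fold were 1371 in DKO against TWT, 1302 in DKO against TKO, 68 in TKO against TWT, 93 in IL-6 KO against TWT and 979 over all cells in DKO against TWT, from 427, 425, 19, 21 and 321, since more genes were tested. With B cell-like levels subtracted they were 61 in TKO against TWT and 89 in IL-6 KO against TWT, and with the pooled classes, an alternative chosen after seeing the data, 42 and 40; the cause was not tested. In IL-6 KO against TWT the number of the 7 genes past 2-fold went from 2 to 1 with 200 genes as the only filter and with the pooled classes, as Vcan came within 2-fold. The alternatives for non-classical and neutrophil-like cells were also added after seeing the data. Clusters and the stricter gate do not apply over all cells. Counts of F7, and of every gene in the small classes of TWT, IL-6 KO and TKO, are limited by depth.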
